A study of Mus musculus with 18 samples.

Results

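The Xlr genes (X-linked lymphocyte-regulated) form a small family of near copies on the mouse X chromosome. The family was taken as 9 genes, in the subfamilies Xlr3 (Xlr3a, Xlr3b, Xlr3c), Xlr4 (Xlr4a, Xlr4b, Xlr4c) and Xlr5 (Xlr5a, Xlr5b, Xlr5c), and each was matched by symbol to the count tables. Of these 9 genes, 6 had a row among the 29717 gene rows of each table. No row carried the name Xlr5a, Xlr5b or Xlr5c, and these 3 genes were not analysed here. The family was chosen because its counts differ between Dnmt1 mutants and controls in these same libraries, so the values for that contrast describe the choice and carry no test.

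The libraries came from lineage-negative bone marrow progenitors of BALB/c mice, 9 from wild-type controls and 9 from mutants. The mutants are labelled dnmt1-/-, but the series describes a specific Dnmt1 mutation that was modelled on hypomorphic fish alleles and lowers the methylation of genomic DNA. The sequenced cells were 3 sorted populations: HSC, with 3 controls and 3 mutants, MPP1, with 2 and 2, and MPP4, with 4 and 4. These names are used in the field for haematopoietic stem cells, for the multipotent progenitors closest to them and for lymphoid-primed multipotent progenitors. The ages and sexes of the animals, the number of cells sorted and the base change in Dnmt1 were not given in what was read for this work. Each library carries 1 of 8 ID numbers, 4 per genotype, and 1 of 3 sequencing batches, A, B or C. The labels do not say whether an ID number is an animal, so errors and p-values reflect library-to-library spread, part of which may be technical.

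Dnmt1 copies the methylation of CpG dinucleotides onto the new DNA strand after each round of replication. In somatic cells this methylation keeps a set of germline genes silent, many of them needed for meiosis, and such genes are known to come on when methylation is lost. Xlr proteins are related to SYCP3, a structural protein of the synaptonemal complex that joins paired chromosomes in meiosis. The founding gene Xlr was first described in lymphocytes, and Xlr3b, Xlr4b and Xlr4c are known as imprinted genes in the mouse brain, where the copy on the maternal X is favoured. What most Xlr proteins do in blood cells is not established.

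The RefSeq promoter windows, 250 bases before to 50 bases after the annotated start on build GRCm38.p6, were matched for all 9 names. Shown are those of Xlr3a and the 3 Xlr4 genes, because these 4 genes hold most of the counts and because Xlr4a and Xlr4b, whose control levels differ, have almost the same window. Capitals mark CpG dinucleotides, the sites at which Dnmt1 acts.
Xlr3a (chrX:73097046-73097345, minus strand): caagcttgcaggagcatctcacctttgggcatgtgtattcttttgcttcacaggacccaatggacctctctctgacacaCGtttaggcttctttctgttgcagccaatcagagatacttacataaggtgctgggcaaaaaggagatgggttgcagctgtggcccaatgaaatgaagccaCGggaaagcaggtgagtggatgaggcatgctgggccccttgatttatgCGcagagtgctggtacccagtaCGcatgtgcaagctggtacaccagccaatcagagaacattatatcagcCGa
Xlr4a (chrX:73082458-73082757, minus strand): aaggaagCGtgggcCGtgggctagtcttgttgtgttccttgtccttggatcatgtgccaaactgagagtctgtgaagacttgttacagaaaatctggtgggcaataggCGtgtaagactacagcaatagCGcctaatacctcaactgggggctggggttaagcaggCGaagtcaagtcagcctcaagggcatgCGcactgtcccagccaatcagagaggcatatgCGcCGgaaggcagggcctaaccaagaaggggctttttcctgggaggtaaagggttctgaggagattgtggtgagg
Xlr4b (chrX:73214083-73214382, plus strand): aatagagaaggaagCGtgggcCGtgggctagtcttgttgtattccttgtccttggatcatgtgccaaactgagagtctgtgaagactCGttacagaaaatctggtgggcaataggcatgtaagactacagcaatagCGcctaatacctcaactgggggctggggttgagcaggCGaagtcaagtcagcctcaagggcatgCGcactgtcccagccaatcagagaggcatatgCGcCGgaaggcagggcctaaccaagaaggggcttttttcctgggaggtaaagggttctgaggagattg
Xlr4c (chrX:73243081-73243380, minus strand): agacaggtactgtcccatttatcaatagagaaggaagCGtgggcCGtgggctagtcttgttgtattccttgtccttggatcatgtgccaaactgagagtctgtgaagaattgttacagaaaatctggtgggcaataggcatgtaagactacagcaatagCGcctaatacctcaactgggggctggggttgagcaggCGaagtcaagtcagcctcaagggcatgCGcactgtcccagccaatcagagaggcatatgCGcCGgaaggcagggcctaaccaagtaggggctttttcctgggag

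The Xlr4a and Xlr4b windows shared 98.63% of 292 aligned bases, and Xlr4b and Xlr4c shared 98.92% of 277, gaps left out. Within the Xlr3 genes the identity was 93.72% for Xlr3a against Xlr3b, 95.43% for Xlr3a against Xlr3c and 98.14% for Xlr3b against Xlr3c. CpG dinucleotides numbered 5 in Xlr3a, 7 each in Xlr3b, Xlr3c and Xlr4c, and 8 each in Xlr4a and Xlr4b. Those values lie near the median of 7 (quartiles 3 and 20) over all 32851 RefSeq windows of the same length, so these 6 are not CpG-dense promoters. Xlr5a and Xlr5b held 16 each and Xlr5c held 1. The letters CCAAT, on either strand, occurred in 8 of the 9 windows (all but Xlr5c) and in 37.41% of all windows. CACGTG was in 0 of the 9 and 7.15% of all, GCGGGA in 0 of the 9 and 19.98% of all, and TATAAA in 0 of the 9 and 13.62% of all, both strands searched. A match describes these letters in this window and nothing more.

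The near identity extends to the transcripts and limits what can be said of single members. In the last 500 bases of the longest coding transcript, the stretch nearest to where this method reads, the Xlr3 genes were 98.58% to 98.78% identical to each other and Xlr4a and Xlr4b were 98.39% identical over 498 aligned bases. Of all 50-base windows in those ends, 73.17% of Xlr3a, 84.7% of Xlr3b, 55.65% of Xlr3c, 60.31% of Xlr4a and 50.11% of Xlr4b recur exactly in a transcript of another member. Xlr4c stands apart, with 0.4435% of its windows shared. How the authors treated reads that match several copies is not given in the sources used here, so counts could be split between copies or lost, and the family sum is the safer value. In the GENCODE M21 annotation a single Xlr5a model runs from 73107635 to 73292976 on the minus strand of the X chromosome, across most of the cluster. Whether the authors used that annotation is not known.

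Library totals ran from 354642 counts (HSC control 3) to 1943562 (MPP4 control 2), and 1 count was worth 0.4502 to 4.084 CPM (counts relative to the library total, scaled by edgeR's TMM method). Members reached at most 80 counts in any library. Dnmt1 itself gave 60 to 359 counts per library in HSC, 84 to 400 in MPP1 and 100 to 730 in MPP4, with mutant minus control log2 differences of 0.28 (SE 0.23), -0.18 (SE 0.23) and -0.22 (SE 0.20). None passed edgeR's test (adjusted p = 0.7136, 0.9993 and 0.901), and a mutation that alters the protein need not alter these counts, so they do not check the genotype labels. Marker lists separated MPP4 from HSC: in controls edgeR called 12 of 15 stem-cell genes lower and 10 of 13 lymphoid-primed genes higher in MPP4. It called 0 of either list between MPP1 and HSC controls (1 and 0 at an unadjusted p under 0.05), so these lists do not tell those populations apart. Several libraries stood apart. HSC control 1 had a summed level of 24210 CPM for 15 B and plasma cell genes (27.27 to 67.32 in the other HSC libraries), and MPP4 mutant 3 and MPP4 control 4 had 10250 and 2830 CPM for the same list. MPP4 control 4 and MPP4 mutant 2 had 45710 and 239400 CPM for 15 erythroid genes (339.7 to 616.7 in the other MPP4 libraries). MPP1 control 2 and HSC mutant 1 also had erythroid sums of 32510 and 15780 CPM. The same libraries were high in 13 neutrophil genes: 41080 CPM in MPP4 mutant 2 and 5816 in MPP4 control 4 (371.4 to 1325 in the other MPP4 libraries), 9344 in MPP1 control 2 and 3000 in HSC mutant 1. Between genotypes edgeR called 0 genes of either list and 0 stem-cell genes, but in HSC the erythroid median was 1.13 on the log2 scale, with 6 of 11 tested genes at an unadjusted p under 0.05. The erythroid median had the opposite sign in MPP1 (-7.29, 5 genes tested) and MPP4 (-2.70, 6 genes tested), with 0 genes at that p in either. For stem-cell genes the median was -0.46 in HSC (6 of 15 at that p) and -0.43 in MPP4 (4 of 10, and 1 called by DESeq2). The part of these shifts in the Xlr values was not tested. Replicates differed by more than counting noise in every group, which by itself does not show that they are independent. Each library was treated as its own sample.

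The summed level of the 6 measured Xlr genes, in CPM, was higher in every mutant library than in any control library of the same population. In HSC the 3 controls gave 12, 16 and 5 counts, or 19.97, 14.74 and 13.63 CPM. The 3 HSC mutants gave 148, 131 and 69 counts, or 134.6, 114.0 and 115.3 CPM. The group means were 16.1 ± 3.38 (SD, n = 3) and 121.3 ± 11.6 CPM (SD, n = 3), a log2 difference of 2.88 (SE 0.31) in edgeR's fit. The lowest mutant stood above the highest control by far more than the spread within either group.

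In MPP1 the family sum was 26 and 11 counts in controls (19.56 and 20.56 CPM) against 44 and 59 in mutants (119.5 and 124.8 CPM). The means were 20.1 ± 0.70 and 122.2 ± 3.73 CPM (SD, n = 2 each), and the log2 difference was 2.61 (SE 0.33). The levels in both genotypes were thus close to those of HSC.

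In MPP4 the 4 controls were uneven. They held 51, 117, 20 and 4 counts, or 31.62, 52.67, 15.81 and 16.34 CPM, while the 4 mutants held 71, 40, 39 and 165 counts, or 90.62, 87.41, 101.2 and 136.8 CPM. The means were 29.1 ± 17.3 and 104.0 ± 22.6 CPM (SD, n = 4 each), with a log2 difference of 1.86 (SE 0.34). MPP4 control 2 was the highest control of any population, yet all 4 mutants lay above it in CPM. In raw counts the MPP4 groups overlapped, since this control is the library with the largest total. Since these are sorted pools, more cells with Xlr transcripts and more transcripts per cell cannot be told apart.

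**Figure D1:**
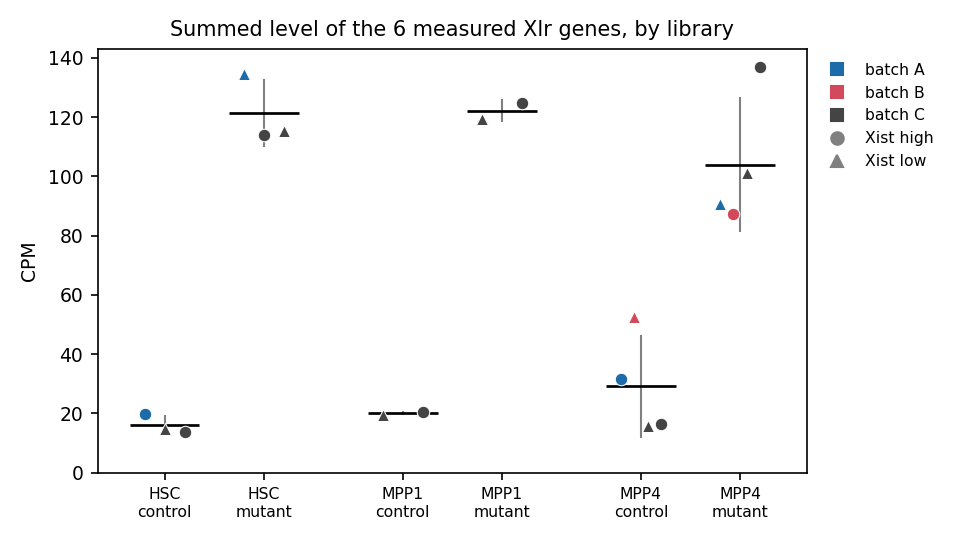
Summed level of the 6 measured Xlr genes in CPM (vertical axis) for each of the 18 libraries, grouped by population and genotype. Points are libraries, coloured by sequencing batch and shaped by Xist state; the black line is the group mean and the grey line 1 SD. Mutants lie from 87.41 to 136.8 CPM and controls from 13.63 to 52.67, the highest control being MPP4 control 2 of batch B.

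The mutant difference was found within each batch, at different sizes. In HSC the family level was 6.74-fold higher in the mutant of batch A than in its control and 8.08-fold higher between the means of the 2 mutants and 2 controls of batch C. All MPP1 libraries were of batch C, with a ratio of 6.09. In MPP4 the ratio was 2.87 in batch A, 1.66 in batch B and 7.40 in batch C. Batches A and B hold 1 library per genotype there and so have no replicate check. The batch B ratio depends on the TMM scaling. Over plain library totals, MPP4 control 2 and MPP4 mutant 2 were closer, at 60.2 and 69.3 CPM. On that scale Xlr4b was lower in that mutant (32.92 CPM) than in that control (41.16). With batch C alone the MPP4 log2 difference was 2.91, near that of the other populations. Leaving out MPP4 control 2 gave 2.30, leaving out MPP4 mutant 2, the library with the erythroid and neutrophil counts, gave 2.30, and leaving out HSC control 1, the library with the B cell counts, gave 2.98. Leaving out either library of batch B takes that batch out of the comparison. Without MPP4 control 4 and without MPP4 mutant 3 the values were 1.76 and 1.88, without HSC mutant 1 it was 2.98 and without MPP1 control 2 it was 2.64.

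Xist, the RNA that coats the inactive X, was read as a measure of X-linked state because the whole family lies on that chromosome. It was abundant in all libraries of 4 ID numbers, 2 per genotype (1313 to 3263 CPM), and at 36.32 CPM or less in those of the other 4. Y-linked genes had 150 to 796 counts per library in the Xist-low libraries and 0 to 9 in the Xist-high ones. This reads as female cells where Xist was high and male cells where it was low, though the labels do not give sex. The state was the same in all libraries of an ID number. Among Xist-high libraries the family was 6.79-fold higher in mutants in HSC, 6.07-fold in MPP1 and 4.68-fold in MPP4. Among Xist-low libraries it was 8.48-fold, 6.11-fold and 2.80-fold higher, MPP4 control 2 being 1 of the 2 Xist-low controls of MPP4. With the Xist level as a further term the log2 differences were 2.89, 2.59 and 1.81. The mutants of either state lay above the controls of either state in each population.

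The make-up of the family counts differed between genotypes as well as their sum. Xlr4b supplied 190 of 262 family counts in controls, or 72.5% (95% exact binomial interval 66.7% to 77.8%), against 279 of 766 in mutants, or 36.4% (33% to 39.9%). Xlr3a went from 11.1% to 26.1%, Xlr4a from 4.58% to 16.8% and Xlr4c from 9.92% to 17.2%. MPP4 control 2 held 25 of the 29 control counts of Xlr3a and 117 of the 262 control counts of the family. Without it, the control shares were 2.76% for Xlr3a (4 of 145 counts), 6.9% for Xlr4a, 11.7% for Xlr4c and 75.9% for Xlr4b. In each population the Xlr4b share was lower in mutants: 72.7% and 39.4% in HSC, 89.2% and 32.0% in MPP1, 69.3% and 34.6% in MPP4. These intervals and shares pool the libraries of a group and cover counting error only. Without Xlr4b the family sum was 4.11 ± 1.21 against 72.1 ± 13.9 CPM in HSC (SD, n = 3 each), 2.06 ± 0.27 against 82.5 ± 9.04 in MPP1 (n = 2 each) and 9.52 ± 5.29 against 64.7 ± 22.3 in MPP4 (n = 4 each). The log2 differences were then 3.98 (SE 0.41), 5.16 (SE 0.54) and 2.73 (SE 0.41), each larger than with Xlr4b. This rise follows from the choice of the gene left out, so it is no separate result. Xlr4b held most control counts, and its pooled ratio was below those of Xlr3a, Xlr4a and Xlr4c in each population. The remaining sum rests on 9 control counts in HSC, 4 in MPP1 and 59 in MPP4.

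**Figure D2:**
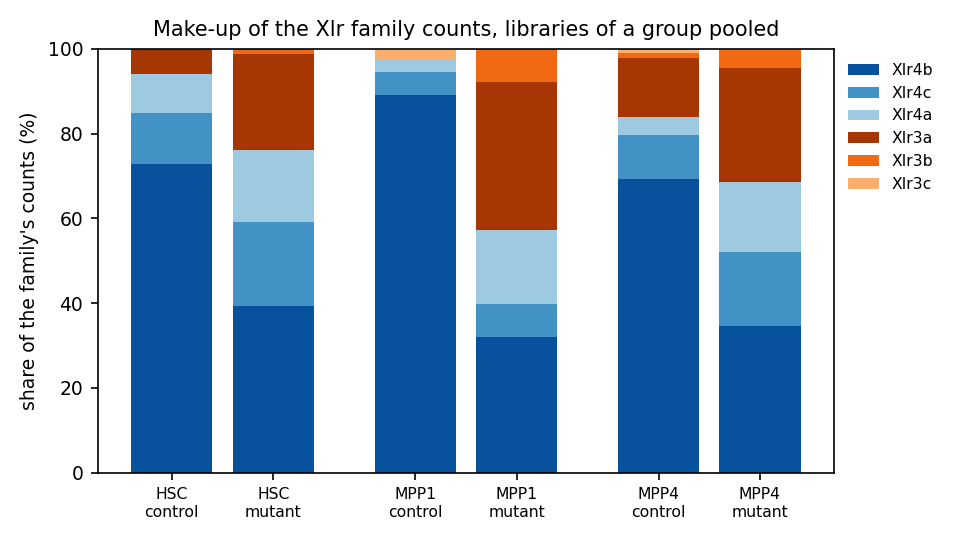
Share of the family's counts (vertical axis, percent) held by each measured Xlr gene, with the libraries of a group pooled, for the 6 groups of population and genotype. Xlr4b, the darkest blue, fills 69.3% to 89.2% of the bar in controls and 32.0% to 39.4% in mutants.

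Xlr4b was the one member with counts in every control library. In HSC it had 9, 11 and 4 counts in controls (14.98, 10.13 and 10.91 CPM) and 52, 52 and 33 in mutants (47.3, 45.26 and 55.12 CPM), a log2 difference of 2.02 (SE 0.37). In MPP1 the counts were 23 and 10 against 16 and 17, which in the smaller mutant libraries are 17.31 and 18.69 CPM against 43.46 and 35.96 CPM, a log2 difference of 1.14 (SE 0.44). In these 2 populations its groups did not overlap. In MPP4 they did: controls had 36, 80, 15 and 2 counts (22.32, 36.01, 11.86 and 8.169 CPM) and mutants 25, 19, 17 and 48 (31.91, 41.52, 44.11 and 39.79 CPM), with MPP4 control 2 above MPP4 mutant 1. The log2 difference there was 0.99 (SE 0.35).

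Xlr3a was near silent in most controls. In HSC it had 1, 1 and 0 counts in controls and 21, 33 and 25 in mutants (19, 28.72 and 41.76 CPM). In MPP1 both controls had 0 counts, and the mutants had 10 and 26 (27.17 and 55.0 CPM), at least 26.6-fold higher than a floor of 3 counts over the 2 controls. In MPP4 the controls had 0, 25, 1 and 1 counts (0, 11.25, 0.7903 and 4.084 CPM) and the mutants 14, 11, 8 and 52 (17.87, 24.04, 20.76 and 43.11 CPM). All but 2 of the 27 control counts in MPP4 came from MPP4 control 2, which still lay below every mutant. The log2 difference was 4.71 (SE 0.70) in HSC and 3.09 (SE 0.73) in MPP4. It was 5.39 without HSC control 1, 5.35 without HSC mutant 1, 5.0 without MPP4 control 2 and 5.05 without MPP4 mutant 2. For MPP1, where the controls are at 0, the fitted value is no bound and is left out.

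Xlr4a followed the same pattern from a low control level. Each HSC control had 1 count, and the mutants had 38, 18 and 3 (34.57, 15.67 and 5.011 CPM), so its level differed several-fold among mutants. In MPP1 the controls had 1 and 0 counts and the mutants 12 and 6 (32.6 and 12.69 CPM). In MPP4 the controls had 6, 2, 0 and 0 counts and the mutants 16, 7, 5 and 24 (20.42, 15.3, 12.97 and 19.9 CPM). MPP4 was the population in which the mutants were most even, at 17.2 ± 3.61 CPM (SD, n = 4), and the log2 difference was 3.62 (SE 0.66). Without MPP4 control 1 it was 4.77 and without MPP4 mutant 1 it was 4.81.

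Xlr4c, the member whose transcript end is its own, had few counts in controls and more in mutants. Its HSC controls had 1, 3 and 0 counts and the mutants 36, 26 and 7 (32.75, 22.63 and 11.69 CPM), and its pooled counts were 12.4-fold higher in mutants (95% counting interval 4.65 to 47.0). In MPP1 it had 1 and 1 counts in controls and 4 and 4 in mutants, where 2 pooled control counts allow a ratio of 8.87 with an interval from 1.77 to 85.7. In MPP4 the controls had 7, 9, 3 and 1 counts (4.34, 4.052, 2.371 and 4.084 CPM) and the mutants 15, 3, 8 and 29 (19.15, 6.555, 20.76 and 24.04 CPM). The pooled ratio was 5.19 (3.06 to 9.14), and MPP4 mutant 2 lay close to the controls.

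**Figure D3:**
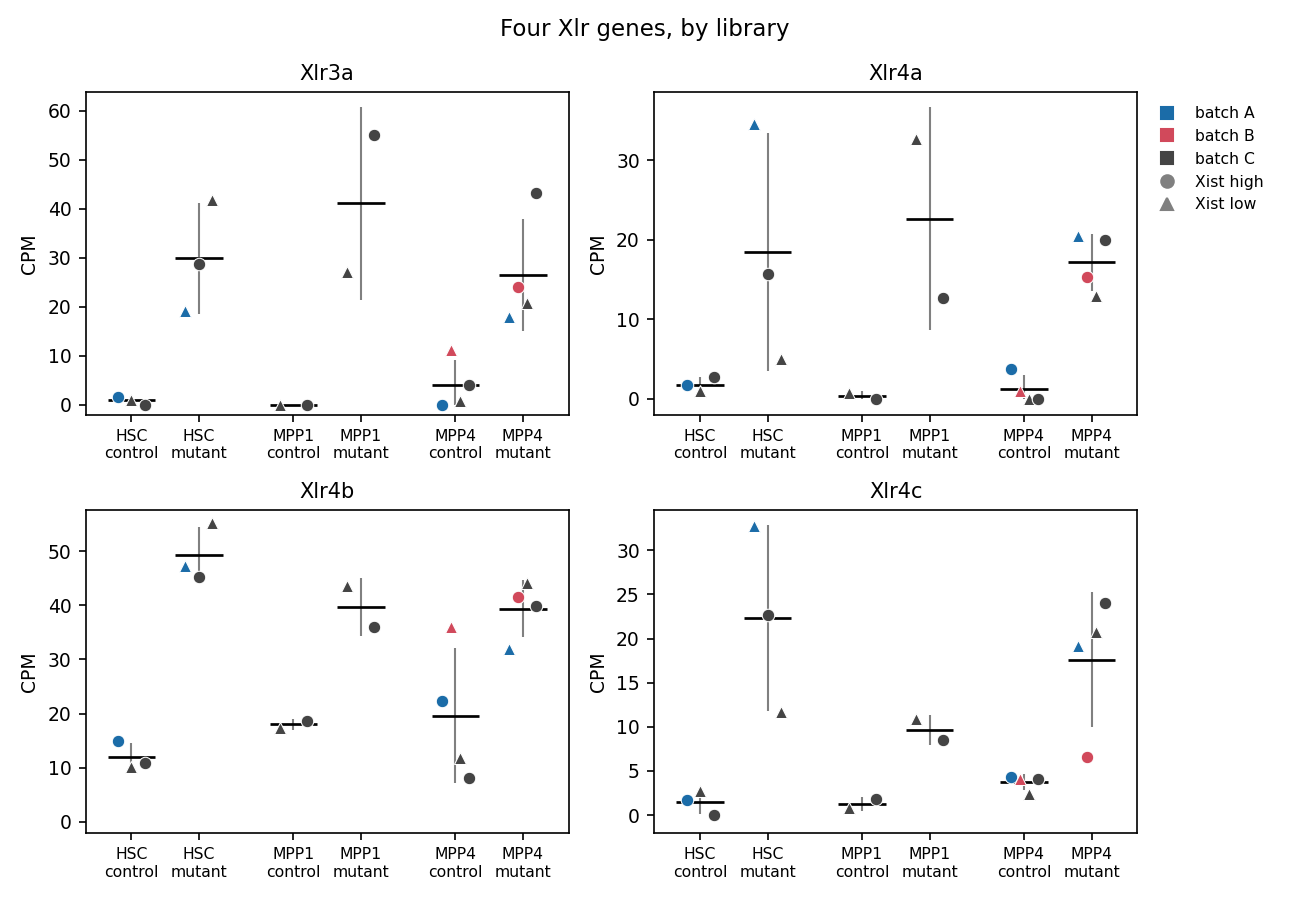
Level in CPM (vertical axes, scales differ) of Xlr3a, Xlr4a, Xlr4b and Xlr4c in each of the 18 libraries, by population and genotype, with the same colours, shapes, mean and SD lines as for the family sum. Xlr4b is present in all control groups (10.13 to 14.98 CPM in HSC), while Xlr3a and Xlr4a lie at or near 0 in most control libraries.

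Xlr3b and Xlr3c stayed near the limit of detection. Xlr3b had 0 counts in all 5 HSC and MPP1 controls, 1, 2 and 1 in the HSC mutants and 2 and 6 in the MPP1 mutants, the latter at least 5.91-fold above the floor of 3 counts. In MPP4 it had 0, 1, 1 and 0 counts in controls and 1, 0, 0 and 12 in mutants, so 12 of the 13 mutant counts came from MPP4 mutant 4. Xlr3c had 4 counts over all 18 libraries, 3 of them in controls, and no difference was detectable at this depth. Since Xlr3a and Xlr3b share most of their transcript ends, the split of counts between them is uncertain. The Xlr3 sum was 0.86 ± 0.83 against 31.3 ± 11.7 CPM in HSC (SD, n = 3 each), 0.38 ± 0.53 against 50.1 ± 24.8 in MPP1 (n = 2 each) and 4.65 ± 4.87 against 29.9 ± 15.6 in MPP4 (n = 4 each). The Xlr4 sum was 15.2 ± 2.65 against 90.0 ± 22.1, 19.7 ± 1.23 against 72.0 ± 21.1 and 24.5 ± 13.7 against 74.1 ± 8.73 CPM.

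Over the 6 measured members, the mutants lay wholly above the controls for 5 in HSC and 5 in MPP1 (all but Xlr3c) and for 3 in MPP4 (Xlr3a, Xlr4a and Xlr4c). Of all genes that passed the filter on low counts, 4.99% in HSC, 16.8% in MPP1 and 1.45% in MPP4 had all mutants above all controls. Of the members that passed it, 2 of 2, 2 of 2 and 2 of 3 did. The filter on low counts kept Xlr3a and Xlr4b in HSC and MPP1 and Xlr3a, Xlr4a and Xlr4b in MPP4, genes that could pass through their mutant counts alone. edgeR called 0.241% of 9147 genes in HSC (22 genes, or 39 with the replicate number as a block), 0.225% of 8004 in MPP1 (18 genes) and 0.0852% of 9392 in MPP4 (8 genes) at an adjusted p under 0.05. The family was chosen with that contrast in view, so nothing is read from these shares. In the authors' deposited tables the log2 fold changes were 1.80 for Xlr3a, 1.14 for Xlr4a, 1.39 for Xlr4b and 1.38 for Xlr4c in HSC. They were 1.51, 0.91, 0.49 and 0.40 in MPP1 and 1.14, 1.68, 0.59 and 1.34 in MPP4 in the authors' deposited tables, on a scale whose shrinkage is not stated.

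The members were also ordered by mean level within each genotype. CEL-Seq2 (CellSeq2 in the labels) tags each captured transcript once at its 3' end, so counts of different genes were compared without division by length. In HSC mutants the mean levels were 49.2 ± 5.21 CPM for Xlr4b, 29.9 ± 11.4 for Xlr3a, 22.4 ± 10.5 for Xlr4c, 18.4 ± 15.0 for Xlr4a and 1.44 ± 0.46 for Xlr3b (SD, n = 3). The 3 in the middle overlap in their libraries. In MPP1 mutants the means were 41.1 ± 19.7 for Xlr3a, 39.7 ± 5.31 for Xlr4b, 22.6 ± 14.1 for Xlr4a, 9.66 ± 1.70 for Xlr4c and 9.06 ± 5.13 for Xlr3b (SD, n = 2). Xlr3a overlapped both Xlr4b and Xlr4a there. In MPP4 mutants the order was Xlr4b (39.3 ± 5.26), Xlr3a (26.4 ± 11.4), Xlr4c (17.6 ± 7.66), Xlr4a (17.2 ± 3.61) and Xlr3b (2.81 ± 4.80; SD, n = 4). Xlr4b lay above Xlr4c and Xlr4a in all 4 libraries, but Xlr3a overlapped each of these 3, and Xlr4c and Xlr4a overlapped each other. In controls Xlr4b came first in every population (12 ± 2.60, 18 ± 0.98 and 19.6 ± 12.5 CPM in HSC, MPP1 and MPP4), and the others averaged 4.03 CPM or less. In MPP4 controls the means of Xlr3a (4.03), Xlr4c (3.71), Xlr4a (1.155) and Xlr3b (0.31) followed in the same order as in MPP4 mutants. The place of Xlr3a rests on MPP4 control 2, which held 25 of its 27 counts. By the median Xlr4c (4.07 CPM) lay above Xlr3a (2.44). Xlr3c also averaged 0.31 CPM in MPP4 controls, so it and Xlr3b are not ordered. Across the 18 libraries, Pearson's r of log2 CPM was 0.89 between Xlr4a and Xlr4c, 0.83 between Xlr3a and Xlr4c and 0.82 between Xlr3a and Xlr4b. All pairs share the libraries and the genotype difference, and near copies may share reads, so these are descriptions.

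Whether the family differed between populations was not part of its choice, and single members were tested for it. One model held all 18 libraries and a block for each ID number, and Xlr3a, Xlr4a, Xlr4b and Xlr4c passed its filter. In the 3 comparisons within mutants, none of the 4 passed edgeR's test and none had an unadjusted p under 0.05, and the same held with DESeq2. Within controls only Xlr4b had enough counts to compare (24 in HSC, 33 in MPP1 and 133 in MPP4), and it passed neither test. MPP4 control 2 held 80 of those 133 counts and did not inform the comparison, since its ID number is in no other population. It also held 25 of the 27 Xlr3a counts in MPP4 controls. The control counts of Xlr3a (2, 0 and 27), Xlr4a (3, 1 and 8) and Xlr4c (4, 2 and 20) were too few, these genes having passed the filter through the mutants, so their control comparisons say nothing. The share of all 10613 genes called was 9.82% for MPP4 minus HSC in controls, 12.7% in mutants, 0.236% and 0.0471% for MPP1 minus HSC, and 3.58% and 6.2% for MPP4 minus MPP1. Within mutants the lowest adjusted p of a member was 0.509 (Xlr4c, 1.0 higher on the log2 scale in MPP4 than in MPP1 mutants, interval -0.43 to 2.44).

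The intervals show what these tests could have missed. In mutants, Xlr4b in MPP4 minus HSC was -0.35 on the log2 scale (95% interval -0.91 to 0.21, adjusted p = 0.516 with edgeR), and Xlr3a was -0.08 (-0.91 to 0.75, adjusted p = 0.942). The family sum in mutants was -0.14 (-0.56 to 0.28) for MPP4 minus HSC, -0.01 (-0.54 to 0.51) for MPP1 minus HSC and -0.13 (-0.65 to 0.39) for MPP4 minus MPP1. For the family sum these intervals reach 0.65 in size, and for single members they are wider. In controls Xlr4b was 0.89 (-0.02 to 1.80) for MPP1 minus HSC (adjusted p = 0.936 with edgeR). There, where counts are few, the family sum was 0.38 (-0.31 to 1.07), 0.58 (-0.23 to 1.39) and -0.21 (-1.0 to 0.59) in the same order. MPP4 control 2 and MPP4 mutant 2 carry ID numbers found in no other population and so did not inform these values. When batch replaced the ID number, which brings them in, MPP4 minus MPP1 in controls was 0.39.

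The size of the mutant difference was also set side by side between populations in the same fit, as a description. The family difference was lower by 0.52 (SE 0.40) in MPP4 than in HSC and lower by 0.60 (SE 0.47) in MPP1 than in HSC on the log2 scale, and it was 0.08 (SE 0.46) higher in MPP4 than in MPP1. The 95% intervals were -1.33 to 0.29, -1.56 to 0.37 and -0.86 to 1.01. When batch replaced the ID number the MPP4 minus HSC value was -1.04 (SE 0.45), and with batch C alone it was -0.06. The subfamilies had opposite signs in MPP1 minus HSC: the Xlr3 sum gave 1.18 (SE 1.67) and the Xlr4 sum -0.93 (SE 0.53), with Xlr4b alone at -1.27 (SE 0.57). The Xlr3 value rests on 2 control counts in HSC and 1 in MPP1. The pooled Xlr3 ratios, 29.9 in HSC (8.03 to 251.3) and 97.5 in MPP1 (16.6 to 3939), overlap widely in their counting intervals.

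All 9 names lie within 219.5 kb of the X chromosome, from 73074343 to 73293863 on build GRCm38, in the order Xlr4a, Xlr3a, Xlr5a, Xlr5b, Xlr3b, Xlr4b, Xlr4c, Xlr3c and Xlr5c. Xlr4b (plus strand, 73214321 to 73222453) is followed by the less abundant Xlr4c (minus strand, 73234076 to 73243130) and Xlr3c (minus strand, 73254538 to 73265576). Xlr4a and Xlr3a sit at the other end of the cluster. Between Xlr4b and Xlr4c lies F8a, whose protein binds huntingtin, with 279 counts over all libraries. Its mutant minus control log2 difference was -0.22 (SE 0.39) in HSC, -1.30 (SE 0.63) in MPP1 and -0.15 (SE 0.39) in MPP4, with edgeR's adjusted p = 0.889, 0.999 and 0.967. Spin2d, also inside, had 12 counts.

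Outside the cluster, the 10 nearest annotated genes with a count on each side were examined. Of these 20 genes, 8 were tested in HSC, 7 in MPP1 and 7 in MPP4, and edgeR called 0 in each (the lowest adjusted p was 0.545, Zfp275 in HSC). DESeq2 also called 0, and 0 had an unadjusted p under 0.05 in edgeR. With 0.241%, 0.225% and 0.0852% of all genes called, 0 among so few genes is no result about these neighbours. Their median log2 difference was 0.16, 0.03 and -0.02, against 0.013, -0.0037 and -0.0043 over all genes tested. Single neighbours went either way. The housekeeping neighbours Cetn2 (a centrin of the centrosome) and Bcap31 (an endoplasmic reticulum protein) gave 0.04 (SE 0.30) and 0.34 (SE 0.23) in HSC. Zfp275 gave -0.62 (SE 0.34), -0.82 (SE 0.41) and -0.58 (SE 0.34) in HSC, MPP1 and MPP4. Pnck gave -0.79 (SE 0.48), 1.29 (SE 0.71) and -0.04 (SE 0.47) in the same order.

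**Figure D4:**
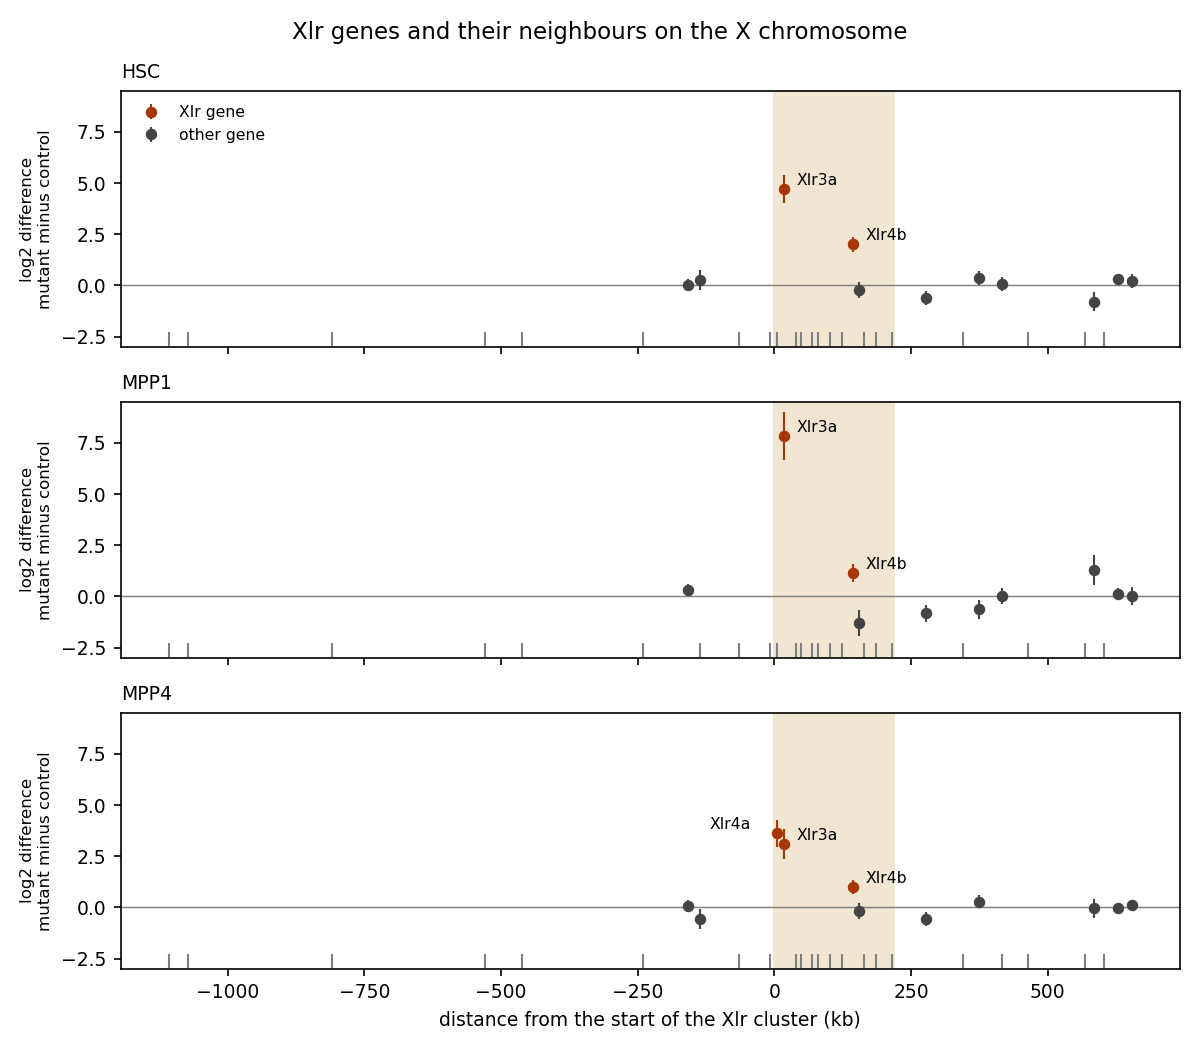
Log2 difference between mutants and controls (vertical axis) against distance from the start of the Xlr cluster in kb (horizontal axis), in HSC, MPP1 and MPP4. Red points are Xlr genes and dark points other genes, with 1 SE; grey ticks mark genes that were not tested or had no row, and the shaded band is the cluster of 219.5 kb. The tested Xlr genes lie at 0.99 or above, and the MPP1 value of Xlr3a rests on controls at 0 and is no bound; no neighbour was called.

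Of relatives outside the cluster, Xlr had more counts in most mutants. In a wider list of 11 Xlr and Cor1 genes, 3 had a row and 0 passed the filter in the genotype fits. The other two, Slx and Sycp3, had 3 and 10 counts over all 18 libraries, too few to compare. Xlr, the founding gene, had 0, 1 and 0 counts in HSC controls and 24, 27 and 1 in HSC mutants, so HSC mutant 3 lay close to the controls. It had 2 and 1 counts against 4 and 8 in MPP1, and 6, 4, 3 and 0 against 13, 4, 6 and 32 in MPP4. The gene model 3830403N18Rik, which is not on that list, was singled out after its values were seen. RefSeq gives it the synonym Xlrl. It had 0 counts in the 3 HSC controls and 74 in the 3 mutants, at least 17.8-fold above the floor of 3 counts over the group. It had 1 against 12 counts in MPP1 and 4 against 93 in MPP4.

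Few of the germline genes known to be silenced by methylation were abundant enough to test. Of 64 names, 57 had a row, and 3, 3 and 4 were tested in HSC, MPP1 and MPP4. edgeR called 1 higher in HSC, 0 in MPP1 (2 at an unadjusted p under 0.05) and 2 in MPP4, and 0 lower, and DESeq2 called 1, 0 and 2. Of all genes tested edgeR called 0.241%, 0.225% and 0.0852% in the same order. The list was chosen with earlier results of these data known, so these calls are a description. Slc25a31, a mitochondrial ADP/ATP carrier of the germline, had 0 counts in all 9 control libraries. It had 17 to 44 per library in HSC mutants, 6 to 18 in MPP1 mutants and 5 to 63 in MPP4 mutants. It could pass the filter only through its mutant counts, so no p is given for it. Stag3, a cohesin subunit of meiotic chromosomes, was higher by 2.0 (SE 0.33) on the log2 scale in MPP4 mutants (adjusted p = 0.0172), while in MPP1 it gave 2.37 (SE 0.69) and did not pass (adjusted p = 0.412). The summed level of the 57 genes was 75.53 to 94.84 CPM in HSC controls and 162 to 261 CPM in HSC mutants. In MPP4 it overlapped, at 120.1 to 388.0 and 210.2 to 329.3 CPM. The highest control there was MPP4 control 4, 1 of the libraries with B cell and erythroid counts, whose part in this sum was not tested.

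The 5 genes whose log2 CPM followed the family sum most closely over the 18 libraries, among 10609 ranked, were Slc25a31 (Pearson's r = 0.93), Gm128 (0.89), 3830403N18Rik (0.89), Fos (0.88) and Rapgefl1 (0.87). Slc25a31 averaged 34.97 ± 5.69 CPM in HSC mutants, 27.2 ± 15.4 in MPP1 mutants and 27.6 ± 18.7 in MPP4 mutants. Fos, an immediate-early transcription factor, was abundant in both genotypes. It averaged 132.8 ± 63.7 against 455.1 ± 60.5 CPM in HSC, 82.8 ± 20.3 against 560.0 ± 215 in MPP1 and 101.4 ± 21.1 against 438.7 ± 167 in MPP4 (SD, controls then mutants). Rapgefl1 averaged 3.25 ± 0.48 against 13.2 ± 4.92 CPM in HSC, 2.82 ± 1.34 against 14.2 ± 0.87 in MPP1 and 1.82 ± 1.32 against 13.2 ± 2.72 in MPP4. The libraries share the genotype difference that chose the family, so the ranking is a description.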

How the data were processed

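Estimated counts were used as deposited by the authors, for 29717 gene symbols in 18 CEL-Seq2 libraries of 3 populations. They are whole numbers whose values fit a correction for collisions between unique molecular identifiers: the 1557 values of at least 1000 that fall short of the ceiling of 36909 all (100%) lie on the grid given by 4096 possible identifiers, as do 62% of whole numbers in the low part of that range. No source used here states this step. Per the labels' protocols, cells were sorted into lysis buffer without RNA extraction. R 3.4.0, DESeq2 and the build mm10 are named, per the submitters' processing notes. No aligner, counter or annotation is named in the sources used here. Besides, the authors' deposited tables give log2 fold changes per population, and these were copied without change.

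Each population was fitted with edgeR 4.0.16 in R 4.3.3: TMM scaling, the default filter (minimum count of 10) by genotype, a robust quasi-likelihood fit with batch and genotype (genotype alone in MPP1), and Benjamini-Hochberg adjustment over all genes tested with a threshold of 0.05. One fit over 18 libraries, blocked by ID number, gave the comparisons between populations and the CPM scale. Sums over members were fitted as extra rows outside library sizes and adjustment. Ratios and shares use pooled counts with exact 95% intervals and a floor of 3 counts over a group, and cover counting error only. Correlations used a prior count of 2. The replicate numbers, taken from the labels, were checked for pairing by correlating deviations from the group means. In HSC the 3 numbers gave 0.458 (the batch A pair), 0.218 and 0.203. Of unlike numbers, HSC control 2 with mutant 3 gave 0.223 and HSC control 3 with mutant 2 gave 0.107, all of batch C. Unlike numbers across batches gave -0.356 to -0.233. Within batch C the check thus shows no pairing by number. In MPP4 the same check gave -0.109 to 0.332 for like numbers and MPP1 has only 2 pairs, so there too they are only numbers.

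The text names all 9 members, Dnmt1, Xist, the 5 genes most like the family sum, and up to 3 called genes per list and comparison with the smallest adjusted p. Other genes inside or beside the cluster and the relatives Xlr and 3830403N18Rik were named after their values were seen. The members and the lists were chosen with earlier results of these data known. The genotype fits and MPP4 minus HSC in controls were also run on simulated counts with known fold changes. Those counts had a fixed spread and no batch or ID effect. The sums and the differences between mutant effects were not covered, so that run does not show how the fits perform on these libraries. Alternatives tried were the replicate block, DESeq2 1.42.0, RLE scaling, other filters, the Xist level, no batch term, batch C alone and each library or ID number left out. The shares without MPP4 control 2 were added after seeing the data.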

Additional observations from a re-analysis of the deposited data

Results flagged for a closer look

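Of 20 groups of MPP4 libraries tested for a value far from the others, 5 held one. For continuous values chance alone marks about 1 group in 20, but a lone library with counts among zeros is always marked. Both Xlr3c values are of that kind and rest on 1 or 2 counts. The sums also contain members tested by themselves, so no excess over chance can be read from the 5.

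The Xlr3 sum in MPP4 mutants was highest in MPP4 mutant 4, at 53.06 CPM, with the other 3 libraries between 19.15 and 24.04. In the same library Xlr3b was at 9.948 CPM (12 counts), with 0 to 1 count in the other mutants. Xlr3c was at 1.24 CPM in MPP4 control 1 (2 counts) and at 2.594 CPM in MPP4 mutant 3 (1 count), with 0 counts in the remaining libraries of each group. Xlr4c in MPP4 controls was lowest in MPP4 control 3, at 2.371 CPM (3 counts), with the other 3 between 4.052 and 4.34.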

How the results depend on the processing

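The mutant difference of the family sum was positive under each of the 14 alternatives in HSC (2.85 to 2.98 on the log2 scale), the 10 in MPP1 (2.55 to 2.64) and the 16 in MPP4 (1.53 to 2.91, the highest being 2.909 with batch C alone). No test of a member between populations changed its side of the threshold. Outside the family, DESeq2 called 1 stem-cell gene between genotypes in MPP4 where edgeR called 0. Of the counts of called genes and the family values under alternatives, 237 stayed close to the reported value and 65 moved, most of them counts of called genes. Of the single members' values, 542 stayed within the spread between libraries and 33 moved beyond it. None of those 33 came from comparisons between populations within a genotype, where many values rest on too few counts to show stability. Few counts per member limit all of them, and 1 count is worth up to 4.084 CPM.

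With the replicate block, the genes called were 39 in HSC, 38 in MPP1 and 11 in MPP4 instead of 22, 18 and 8, and the family differences were 2.88, 2.60 and 1.81. DESeq2 called 14 genes in HSC and 33 in MPP4. Without a filter the counts were 1.1e+02 (rounded), 41 and 88, and with a minimum count of 30 they were 12 in HSC and 5 in MPP1. The Xist term gave 43 in MPP1 and 18 in MPP4, and no batch term 5 in HSC and 3 in MPP4. Leaving out 1 library gave 13 to 83 genes in HSC (83 without HSC mutant 3, 53 without HSC control 2, 39 without HSC control 3, 13 without HSC mutant 2). In MPP1 it gave 23 to 75 (75, 54 and 32 without MPP1 control 1, MPP1 control 2 and MPP1 mutant 2), the lone library being assumed to vary like the other group. In MPP4 it gave 1 to 20 (5, 20 and 1 without MPP4 control 1, 2 and 3, and 2, 19 and 17 without MPP4 mutant 1, 2 and 4). The cause of these shifts was not tested.

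Between populations, exchanging the ID number for batch (no replicate block) called 891 genes instead of 1350 for MPP4 minus HSC in mutants. For MPP1 minus HSC it called 3 instead of 25 in controls and 0 instead of 5 in mutants, and for MPP4 minus MPP1 220 instead of 380 in controls and 413 instead of 658 in mutants. DESeq2 called 627 instead of 1042 and 808 instead of 1350 for MPP4 minus HSC in controls and mutants, 10 and 10 for MPP1 minus HSC, and 195 and 373 for MPP4 minus MPP1. Without a filter MPP1 minus HSC gave 71 in controls and 29 in mutants, and batch C alone gave 20 in mutants. Leaving out 1 ID number gave 460 to 1158 and 722 to 1534 for MPP4 minus HSC in controls and mutants, 16 to 40 and 0 to 24 for MPP1 minus HSC, and 64 to 466 and 152 to 779 for MPP4 minus MPP1. For MPP4 minus HSC the shifts past 1.5 times came without the numbers of HSC control 2 (460), HSC control 1 (658) and HSC mutant 2 (722). For MPP4 minus MPP1 they came without those of HSC control 2 (64), HSC mutant 2 (152) and HSC mutant 3 (263). For MPP1 minus HSC they came without HSC control 2 (16) and HSC mutant 1 (40) in controls and without HSC mutant 1, 2 and 3 (21, 0 and 3) and HSC control 3 (24) in mutants.

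The family sum after the same exchange was 0.3856 for MPP4 minus MPP1 in controls, and the mutant difference in MPP4 minus that in HSC and in MPP1 was -1.038 and -0.7489. With batch C alone the former was -0.05815. The family level without Xlr4b was 4.108 and 72.07 CPM in HSC controls and mutants, 2.063 and 82.45 in MPP1, and 9.519 and 64.67 in MPP4. Over plain library totals the MPP1 levels were 21.1 and 117.1 CPM.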
